A study of Homo sapiens with 18 samples.

Results

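Y RNA pseudogene copies are short stretches of the human genome that resemble one of the 4 functional Y RNA genes, RNY1, RNY3, RNY4 and RNY5, but lie elsewhere. They were taken from a table of small RNA counts as the rows whose RNA type was exactly Y RNA, whose end minus start was at most 500, and whose preferred name was not that of a functional gene. Rows with identical counts were taken once. This left 639 copies out of 867 such rows, in a table of 175935 rows. Of the 228 rows set aside, 153 held no count and the other 75 held at most 3 counts. Copies with a pseudogene symbol are called by it, and the others by the RNAcentral identifier that the table gives them.

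The libraries came from HEK293T, a human embryonic kidney cell line, transfected for 48 h with a scramble siRNA (control) or an siRNA against SSB (siSSB), which encodes the La protein. For each treatment, RNA was taken from whole cells (total), from the nuclear fraction (nuc) and from the cytoplasmic fraction (cyto), with 3 libraries per group and 18 libraries in all. Every library title carries the same mark of a PNK step. The study described the 3 libraries of a treatment as biological replicates of this 1 cell line, and the table held 0 rows of SSB itself, so the depletion of SSB was not checked here.

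Y RNAs are small noncoding RNAs made by RNA polymerase III, the enzyme that also makes transfer RNA. Transcription ends in a run of T, and the resulting U-rich 3′ end is bound by La, a chaperone of newly made polymerase III transcripts. The lower stem, in which the 5′ and 3′ ends pair, is bound by the Ro60 protein. Y RNAs are also a source of shorter fragments from the 5′ and 3′ ends. Most Y RNA pseudogenes are retrocopies: the RNA was copied into DNA by the machinery of L1 elements and inserted elsewhere, as a rule with an A-rich tail and with a short repeat of the target site on both sides.

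The 4 functional genes lie within 1 cluster on chromosome 7 (hg38), and 3 of them are shown as the reference for their copies: RNY1 on the minus strand at chr7:148987111-148987248, and RNY4 and RNY5 on the plus strand at chr7:148963315-148963435 and chr7:148941488-148941591. They are given 5′ to 3′ on their own strand, read from the hg38 genome, with the gene in capitals and the next 25 nt in lower case. In all 4 functional genes nucleotides 9 and 10 are the dinucleotide CG.
RNY1: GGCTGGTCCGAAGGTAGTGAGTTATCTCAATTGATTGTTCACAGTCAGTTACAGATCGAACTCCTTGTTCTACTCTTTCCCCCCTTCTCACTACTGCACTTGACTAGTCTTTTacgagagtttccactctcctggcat
RNY4: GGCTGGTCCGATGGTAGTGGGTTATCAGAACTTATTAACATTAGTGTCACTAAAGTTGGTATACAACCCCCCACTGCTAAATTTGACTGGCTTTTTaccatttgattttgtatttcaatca
RNY5: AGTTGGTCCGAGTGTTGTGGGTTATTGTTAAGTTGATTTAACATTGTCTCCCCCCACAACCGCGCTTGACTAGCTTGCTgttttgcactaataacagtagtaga

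The next copies are shown because they held the most counts and because they differ in which part of the gene they kept. Capitals mark stretches that are identical to the functional gene. URS0000699390 (plus strand, chr3:157153548-157153665, hg38) and RNY4P7 (minus strand, chr2:127798879-127798998) start with 34 and 32 nt identical to RNY4. RNY4P20 (minus strand, chr6:151298816-151298933) starts with 30 such nucleotides, and RNY4P17 (plus strand, chr4:169005249-169005369) with 17. URS000065A213 (plus strand, chr9:74847506-74847626) differs from RNY4 early but matches it without a difference from nucleotide 36 to 94. URS00006428FD (minus strand, chr13:99536294-99536396) and URS00006F5B12 (minus strand, chr11:47726869-47726992) start with 47 and 35 nt identical to RNY3.
URS0000699390: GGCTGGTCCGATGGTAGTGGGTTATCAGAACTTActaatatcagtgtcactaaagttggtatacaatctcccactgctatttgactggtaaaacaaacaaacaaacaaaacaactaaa
RNY4P7: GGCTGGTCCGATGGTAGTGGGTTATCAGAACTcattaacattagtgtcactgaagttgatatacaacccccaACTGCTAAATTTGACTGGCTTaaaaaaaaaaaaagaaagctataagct
RNY4P20: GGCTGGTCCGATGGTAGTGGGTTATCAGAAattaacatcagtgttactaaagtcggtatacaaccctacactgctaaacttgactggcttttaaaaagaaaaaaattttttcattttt
RNY4P17: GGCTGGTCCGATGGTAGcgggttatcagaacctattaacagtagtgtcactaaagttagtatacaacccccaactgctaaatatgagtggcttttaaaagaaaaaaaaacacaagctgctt
URS000065A213: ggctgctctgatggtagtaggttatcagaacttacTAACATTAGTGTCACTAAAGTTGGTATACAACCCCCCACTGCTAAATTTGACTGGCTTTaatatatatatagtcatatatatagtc
URS00006428FD: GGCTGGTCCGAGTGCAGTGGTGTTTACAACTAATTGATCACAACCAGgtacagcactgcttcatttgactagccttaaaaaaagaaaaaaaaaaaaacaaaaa
URS00006F5B12: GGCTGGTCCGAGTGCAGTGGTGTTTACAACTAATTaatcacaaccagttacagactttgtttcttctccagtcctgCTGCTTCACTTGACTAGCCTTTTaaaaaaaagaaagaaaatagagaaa

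The next 5 are copies of RNY1 that share its 3′ end. URS00007255C0 (minus strand, chr6:99642212-99642347), RNY1P12 (minus strand, chr3:101662036-101662164), URS00006F1B3E (minus strand, chr10:36625990-36626138), URS000069E91F (plus strand, chr2:9615267-9615398) and URS00006E824A (plus strand, chr5:73100073-73100206) are shown because the rule for naming copies picked them from those lower in the nucleus than in the cytoplasm, as described further on. All 5 contain RNY1 nucleotides 85 to 106 without a difference.
URS00007255C0: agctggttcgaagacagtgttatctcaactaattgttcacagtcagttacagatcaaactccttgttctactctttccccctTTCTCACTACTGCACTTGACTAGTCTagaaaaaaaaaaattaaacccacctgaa
RNY1P12: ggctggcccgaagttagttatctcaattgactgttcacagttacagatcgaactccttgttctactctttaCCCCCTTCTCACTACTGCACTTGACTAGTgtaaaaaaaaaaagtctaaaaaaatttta
URS00006F1B3E: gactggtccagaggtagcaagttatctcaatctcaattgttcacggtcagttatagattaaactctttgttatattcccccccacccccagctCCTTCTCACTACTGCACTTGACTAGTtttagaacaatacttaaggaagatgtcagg
URS000069E91F: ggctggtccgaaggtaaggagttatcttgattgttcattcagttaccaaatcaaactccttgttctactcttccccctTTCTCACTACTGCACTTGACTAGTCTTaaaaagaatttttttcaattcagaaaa
URS00006E824A: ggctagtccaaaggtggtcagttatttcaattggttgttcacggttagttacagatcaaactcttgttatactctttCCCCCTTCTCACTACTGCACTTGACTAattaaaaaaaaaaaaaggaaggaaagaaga

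By best alignment, 249 copies resembled RNY1, 294 RNY3, 90 RNY4 and 6 RNY5. Identity to the nearest gene had a median of 90.0% and ranged from 74.3% to 98.1%. The GENCODE annotation, release 44, gave 36 copies a pseudogene symbol of their own, called 550 only Y_RNA, and had no gene at the position of the other 53. The rows are short, from 121 to 283 nt including 25 nt on either side of the copy. Of all copies, 430 (67.3%) lay in an intron of another gene, 213 of them on the strand of that gene and 217 on the opposite strand. A further 24 overlapped an exon and 185 lay between genes.

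The 3′ ends of the copies differed from those of the functional genes. A run of at least 4 T, the signal that ends polymerase III transcription, stood in the last 35 nt of the row (the last 10 nt of the copy and the 25 nt after it) in all 4 functional genes, in 155 of 639 copies (24.3%) and in 18.5% of the 27433 other rows of at most 500 nt. A run of at least 6 A stood there in 400 copies (62.6%), in 20.8% of the other rows and in none of the 4 genes. A direct repeat of at least 10 nt shared by both flanks, as a duplicated insertion site leaves, was found in 53 copies (8.29%) and in 1.37% of the other rows. Copies of RNY4 held the T run most often, 36 of 90, against 61 of 249 for RNY1 and 57 of 294 for RNY3. Copies with a T run had a median of 58.0 counts over the 18 libraries, and those without one 45.0.

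By single position, the first difference from the functional gene lay most often at nucleotide 9, with 123 copies. Nucleotide 1 followed with 108 copies, nucleotide 10 with 89, nucleotide 3 with 56 and nucleotide 2 with 53. Nucleotides 9 and 10 are the CG of the functional genes. In 212 of 639 copies (33.2%) the match with the gene ran unbroken up to this dinucleotide and broke there, in each of the larger families (78 of 249 copies of RNY1, 106 of 294 of RNY3 and 27 of 90 of RNY4). Only 42 copies were identical to their gene through nucleotide 10.

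The copies together held 1427614 counts over the 18 libraries, against 1959721 counts for the 4 functional genes. These counts were uneven. URS0000699390 and RNY4P7, both copies of RNY4, held 57.5% of all copy counts, the first 10 copies 78.6% and the first 50 copies 91.3%. At the other end 204 copies held fewer than 10 counts, and 82 held at least 1000. By family, RNY4 copies held 73.9% of the copy counts, RNY3 copies 16.1% and RNY1 copies 9.79%, while the 6 RNY5 copies held 2877 counts, 2500 of them at URS00006C1BA6 in an intron of THAP8. Copies share stretches with their gene and with each other, and the treatment of reads that match several places is not given in the sources used here. A count at 1 copy is therefore uncertain as a measure of RNA made from that copy, and it may hold reads of the functional gene.

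Counts followed the part of the gene that a copy kept. Of the 385 copies with 7 or fewer nucleotides identical from the 5′ end, the median was 27.0 counts (18.1 per 100 nt of row). The 212 copies whose match broke at the CG had a median of 58.5, and the 23 copies with 10 to 19 identical nucleotides 366. For the 11 copies with 20 to 29 identical nucleotides the median was 2738. The 8 copies with at least 30 held a median of 35746.5 counts (23720 per 100 nt), the lowest of them 13198. No copy with 30 or more identical 5′ nucleotides was rare, whereas copies with a short 5′ match ran from 1 to 27905 counts. The 8 copies with at least 30 were 5 of RNY3 and 3 of RNY4, and 0 of RNY1.

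**Figure D1:**
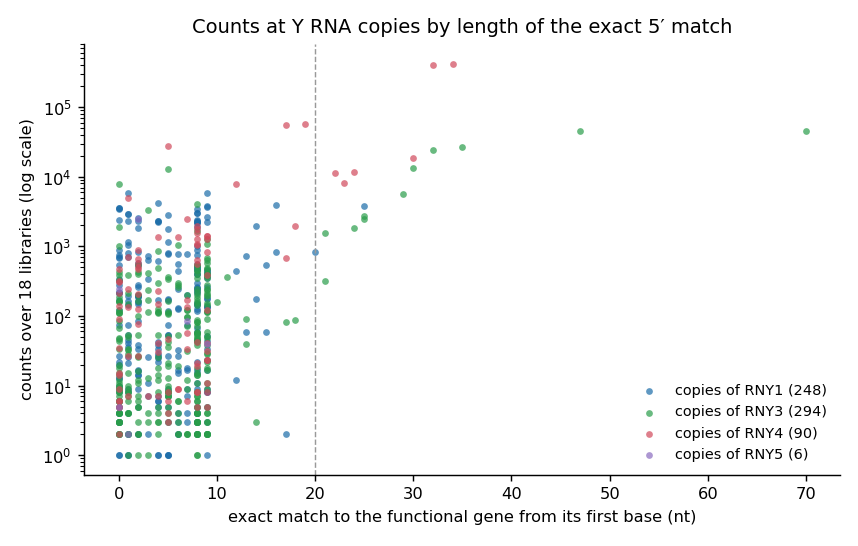
Counts of each copy, summed over the 18 libraries on a log axis, against the number of nucleotides identical to the functional gene from the 5′ end, coloured by family. The 8 copies with at least 30 identical nucleotides all lie at or above 13198 counts.

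Within families counts were set against the exact match at each end of the gene, which was measured differently at the 2 ends. The 5′ match had to begin at nucleotide 1 and stopped at the first difference. The 3′ match was the longest stretch ending within the last 10 nt, so the values do not compare the ends on equal terms. Spearman's rho between counts and the exact 3′ match was 0.50 over the 249 RNY1 copies, 0.50 over the 294 RNY3 copies and 0.16 over the 90 RNY4 copies. For the exact 5′ match the values were 0.12, 0.23 and 0.41. These correlations are descriptions across copies that share the same libraries and much of their sequence. Copies were then grouped by the end they kept, with at least 20 nt identical to the gene either from its first nucleotide (5′-end copies) or in a stretch ending within its last 10 nt (3′-end copies), and copies with both were counted as 5′-end copies. The 19 5′-end copies held 73.2% of all copy counts, and the 215 3′-end copies 17.2%. In RNY4, 6 5′-end copies held 871162 counts and 25 3′-end copies 101085. In RNY3, 11 5′-end copies held 168805 counts, more than the 76868 of RNY3 itself, and 108 3′-end copies 55187. RNY1 showed the other order, with 4627 counts at 2 5′-end copies and 89924 at 82 3′-end copies.

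**Figure D2:**
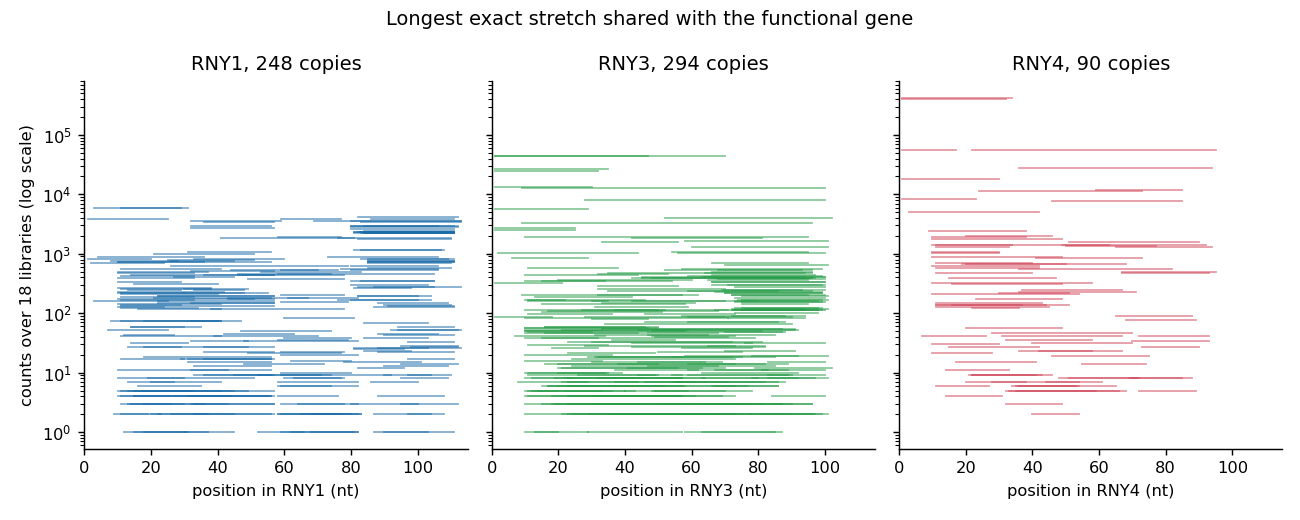
Longest stretch of each copy that is identical to its functional gene, drawn as a line along the gene (x axis, nt from the 5′ end) at the height of the copy's counts over the 18 libraries (y axis, log scale), for RNY1, RNY3 and RNY4. Most of the highest lines of RNY3 and RNY4 begin at nucleotide 1, as in URS0000699390 with 34 nt, whereas many of the highest lines of RNY1 lie near the 3′ end.

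URS0000699390, on the strand opposite to CCNL1 (cyclin L1, a regulator of transcription and splicing) within an exon of CCNL1 transcripts, had 422091 counts, 92.2% identity to RNY4. In control total it had 28342, 22752 and 29907 counts, 1455, 518 and 478 in the nuclear and 34366, 25505 and 67333 in the cytoplasmic control libraries. RNY4P7, in an intron of WDR33 (a polyadenylation factor) and on its strand, had 27542, 22019 and 28562 counts in control total, then 1420, 470 and 394 in the nuclear and 32721, 24140 and 63568 in the cytoplasmic libraries. These 2 copies thus tracked each other from library to library: the ratio of the first to the second lay between 1.02 and 1.21 in all 18 libraries. Both carry the same first 32 nt of RNY4, and RNY4 itself had 51980, 42240 and 52231 counts in control total.

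Other abundant copies were likewise compared with their gene in the control total libraries. URS00006428FD, on the strand opposite to TM9SF2 in an intron, had 5151, 2264 and 2696 counts in control total, which were 60.7%, 54.9% and 60.9% of RNY3. URS00006F5B12, in an exon of FNBP4 transcripts, stood at 31.6%, 33.0% and 35.7% of RNY3. RNY4P17, opposite to CBR4 in an intron, stood at 7.51%, 7.85% and 7.90% of RNY4. RNY4P20, opposite to AKAP12 (a scaffold of protein kinase A) in an intron, stood at 2.60%, 1.49% and 1.53%.

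The fraction labels were checked on whole RNA classes. Column sums ran from 21565995 to 158244813 counts, but rows overlap, so these are not read totals. Of the counts of the small RNA classes, snoRNAs, which work in the nucleolus, made up 79.3% to 85.8% in the nuc libraries and 8.21% to 12.2% in the cyto libraries. Transfer RNAs made up 0.836% to 1.03% in nuc and 20.5% to 30.4% in cyto. Some libraries stood apart within their group. The miRNA share was 4.54% in siSSB total replicate 2 against 2.02% and 2.56% in the other siSSB total libraries and 1.22% to 1.73% in control total, and it was lowest among the cyto libraries in control replicate 3 (4.26%) and siSSB replicate 2 (5.49%), against 7.54% to 11.9% in the other 4.

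Copies and functional genes together were most frequent in the cytoplasm. Their share of the small RNA class counts was 3.98% ± 0.604 (SD, n = 3) in control total, 0.165% ± 0.0530 in control nuc and 10.8% ± 0.515 in control cyto, and 4.44% ± 0.214, 0.117% ± 0.0207 and 12.8% ± 0.803 in the corresponding siSSB groups. Within these Y RNA counts the copies took a nearly constant part. In control cells it was 42.4% ± 1.10 in total, 38.0% ± 1.98 in nuc and 41.1% ± 2.07 in cyto RNA, and in siSSB cells 43.2% ± 1.38, 40.0% ± 2.46 and 43.4% ± 0.477. The control and siSSB ranges overlapped in total and nuc RNA. In cyto RNA they did not, with 38.7% to 42.5% in control and 42.8% to 43.7% in siSSB libraries. In bulk RNA, fewer cells with an RNA and less of it per cell cannot be told apart.

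The first comparison asks where the copies lie in the cell. In control cells the copies were lower in the nucleus than in the cytoplasm. Of 293 copies tested with edgeR's quasi-likelihood test, 246 were lower in the nucleus at an adjusted p under 0.05 and 0 were higher, where 14.1% of all rows tested were lower. The median log2 difference (nucleus minus cytoplasm, TMM scaling) was -3.72 over the copies and -0.27 over all rows. In siSSB cells 276 of 288 copies were lower and 0 higher, with a background of 14.5% and medians of -4.62 and -0.19. DESeq2 called 216 and 258 copies lower and 0 higher, where it called 2830 of 26774 and 2968 of 26274 rows lower. These comparisons share no libraries with each other.

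The number tested depends on the filter, since most copies passed it through the cytoplasm. Only 24 copies would pass it on the nuclear libraries alone, and 18 of these were lower in control cells and 21 in siSSB cells. The share among all rows that would pass there was not computed, so these counts have no background beside them. Of the copies tested, 54 in control and 68 in siSSB cells had no count in any of the 3 nuclear libraries. With these set at the bound that 3 counts over the 3 nuclear libraries allow, the medians were -3.01 and -3.56. The size of the difference depends on the scaling: by library size alone the median of all rows was -4.34 and that of the copies -7.51 in control cells, and by the miRNA total -1.14 and -4.52.

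The medians of the families are a description over the copies tested, most of which had few nuclear counts. In control cells 110 of 132 RNY1 copies, 67 of 106 RNY3 copies and 32 of 52 RNY4 copies had under 10 counts over the 3 nuclear libraries. The fitted median log2 difference was -4.91 for the RNY1 copies (RNY1 itself -4.01 ± 0.34, standard error), -3.41 for RNY4 copies (RNY4 -3.35 ± 0.33), -2.94 for RNY5 copies (RNY5 -1.80 ± 0.33) and -2.12 for RNY3 copies (RNY3 -1.59 ± 0.30). In siSSB cells the copies stood at -5.28, -4.62, -4.45 and -3.22, and the genes at -4.63, -4.14, -2.96 and -2.86. With copies at 0 in the nucleus set at their bound, the medians in control cells were -4.01 for RNY1, -3.10 for RNY4, -2.94 for RNY5 and -1.996 for RNY3 copies, and in siSSB cells -4.38, -4.45, -3.92 and -2.82, so the order of RNY1 and RNY4 copies in siSSB cells depends on how zeros are treated. Called lower in control cells were 130 of 132 RNY1 copies, 63 of 106 RNY3 copies, 50 of 52 RNY4 copies and 3 of 3 RNY5 copies. Of the 24 copies that would pass the filter on nuclear libraries alone, 1 was of RNY1, 15 of RNY3 and 8 of RNY4. Most copies in these counts thus entered through the cytoplasm, where they are high, and the counts do not compare the families.

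**Figure D3:**
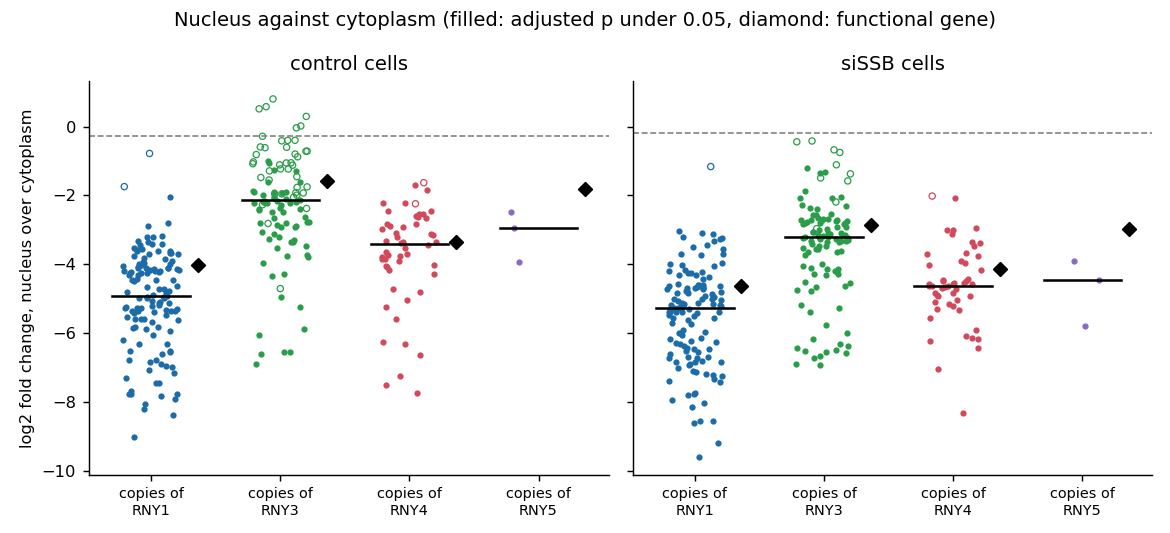
Log2 difference, nucleus minus cytoplasm, of each copy tested in control and siSSB cells by family, filled where the adjusted p was under 0.05, with a line at the family median, a diamond for the functional gene and a dashed line at the median of all rows. Most copies lie below the dashed line, and the fitted family median is -2.12 for RNY3 and -4.91 for RNY1 copies in control cells.

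Among single copies, URS0000699390 was lower in the nucleus by a log2 difference of -3.72 ± 0.37 (adjusted p = 7.41e-10, edgeR) and RNY4P7 by -3.75 ± 0.38 (adjusted p = 1.23e-09), close to RNY4. URS00006428FD stood at -2.08 ± 0.32 (adjusted p = 3.86e-06), close to RNY3. The nuclear and cytoplasmic ranges of these 3 copies, scaled by library size and TMM, did not overlap. For the next 2, both 3′-end copies of RNY1 without nuclear counts, only bounds could be given. The bounds pool the 3 libraries of each fraction and need not hold for each replicate. URS00007255C0, between genes, had 0, 0 and 0 counts in control nuc and 108, 129 and 44 in control cyto, which is at least 23.8-fold lower in the nucleus. RNY1P12, in an intron of ZBTB11 (a zinc finger protein) and on its strand, had 0, 0 and 0 against 90, 65 and 28 counts, at least 15.5-fold lower. Cyto replicate 3 had the lowest count for both of these copies although it had the largest column sum of its group.

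In siSSB cells the copies named by the same rule were URS00006F1B3E, URS000069E91F and URS00006E824A, again 3′-end copies of RNY1 without nuclear counts. URS00006F1B3E, between genes, had 0, 0 and 0 counts in siSSB nuc and 134, 47 and 263 in siSSB cyto, at least 42.4-fold lower. URS000069E91F, opposite to YWHAQ (a 14-3-3 adaptor protein) in an intron, had 104, 44 and 190 in siSSB cyto, at least 32.3-fold lower. URS00006E824A, between genes, had 76, 31 and 118, at least 21.5-fold lower. Cyto replicate 2 was the lowest for all 3, and the pooled bounds need not hold for it. These copies were named for having the largest differences and entered the test through the cytoplasm. The size of their differences therefore does not describe the copies in general. In control cells these copies had 4, 0 and 4, then 1, 0 and 0, then 1, 0 and 1 nuclear counts, and were called lower there too. RNY4P13, opposite to EFCAB5 in an intron, had 1, 3 and 0 counts in control nuc and 105, 73 and 53 in control cyto, a log2 difference of -3.92 ± 0.64 (adjusted p = 1.07e-05).

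Only 5 copies of those tested in control cells had a log2 difference above 0, all of them 3′-end copies of RNY3. The highest, URS0000717DFB, between genes on chromosome 20, was picked out after its value was seen. It had 121, 109 and 64 counts in control nuc and 191, 194 and 264 in control cyto, a log2 difference of 0.80 ± 0.31 (adjusted p = 0.0599). With the replicate number as a block the difference was 0.78 ± 0.28 (adjusted p = 0.0293), and it also passed as higher with identical rows of the table taken once (adjusted p = 0.0436) and without control nuc replicate 3 (adjusted p = 0.0323). By library size alone the log2 difference was -3.39, so its direction rests on the scaling. In siSSB cells its log2 difference was -0.42, and 0 of the 288 copies tested there lay above 0.

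Copies that kept the 5′ or the 3′ end also differed in their ratio to the functional gene in the same library, a measure that needs no scaling between libraries. For the 3′-end copies of RNY1 the summed counts were 6.24%, 7.61% and 5.98% of RNY1 in control total and 8.58%, 15.0% and 12.7% in control nuc. For those of RNY3 they were 52.6%, 62.3% and 56.6% of RNY3 in control total and 106.6%, 131% and 98.3% in control nuc. For those of RNY4 they were 7.42%, 9.72% and 8.15% against 16.5%, 23.7% and 18.2%. In all 3 families the nuclear values lay above the total values with no overlap. This was not particular to the nucleus. For RNY4 the control cyto values of 12.8%, 13.8% and 10.3% also lay above the total values. The control cyto values were 82.4%, 94.5% and 48.2% for RNY3, and 23.1%, 25.2% and 6.55% for RNY1. In both families cyto replicates 1 and 2 lay above all total values and replicate 3 did not. For RNY1 cyto replicates 1 and 2 also lay above all nuclear values. In siSSB cells the nuclear and total values of the 3′-end copies overlapped for RNY1, but not for RNY3 or RNY4. The 5′-end copies of RNY4 went the other way, with 114%, 110.1% and 116% of RNY4 in control total, 86.5%, 53.6% and 64.1% in the nuclear libraries and 93.4%, 92.1% and 90.9% in the cytoplasmic ones. The smallest two-sided p that exact permutation allows for groups of 3 is 0.1, and these ratios are given without a test.

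In the cytoplasm the ratio of 3′-end copies to the gene varied within groups. For RNY1 it was 23.1%, 25.2% and 6.55% in control cyto and 15.2%, 6.78% and 25.1% in siSSB cyto. The low values are control replicate 3 and siSSB replicate 2, the libraries with the lowest cyto miRNA shares. The part of this in the ratios was not tested.

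The next comparisons ask whether the copies respond to depletion of La. In total RNA the 3′-end copies held more counts relative to their genes in siSSB than in control libraries in RNY1, RNY3 and RNY4, while no single copy passed the test. Relative to RNY1, the 3′-end copies held 6.24%, 7.61% and 5.98% in control total and 9.95%, 22.8% and 8.36% in siSSB total. Relative to RNY3 they held 75.8%, 96.0% and 65.3% in siSSB total, against 52.6% to 62.3% in control total. Relative to RNY4 they held 11.7%, 12.04% and 10.2%, against 7.42% to 9.72%. The siSSB values lay above all control values in each of the 3 families.

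Replicate 2, which also had the highest miRNA share of the group, gave the highest siSSB value in every family. Without it the siSSB means were 9.15% of RNY1, 70.5% of RNY3 and 11.0% of RNY4 in place of 13.7%, 79.0% and 11.3%, and the groups still did not overlap. The 5′-end copies overlapped between control and siSSB total, with 110.1% to 116% against 106% to 114% of RNY4 and 209% to 233% against 214% to 247% of RNY3. Copies that kept neither end did not overlap in RNY3 and RNY4. They rose from 6.47% to 7.34% of RNY3 in control to 8.08% to 8.81% in siSSB total. In RNY4 they went down, from 11.0% to 11.5% in control to 10.5% to 10.8%. In RNY1 they overlapped, with 5.96% to 7.02% in control and 6.53% to 7.47% in siSSB total. Those of RNY5 overlapped too, with 0.622% to 0.732% and 0.631% to 0.873%. A shift without overlap was thus not limited to 3′-end copies. Since the same 4 functional genes stand below every ratio, a lower gene and a higher copy cannot be told apart in it. A ratio without the genes sets the 3′-end copies, pooled over families, against the pooled 5′-end copies. The control total libraries gave 13.3%, 16.1% and 12.9%, and the siSSB total libraries gave 19.4%, 29.1% and 15.7%. By this ratio the groups overlapped, because siSSB replicate 3 lay below control replicate 2. The fitted log2 differences of the genes in total RNA (siSSB minus control) were -0.34 ± 0.33 for RNY1, -0.90 ± 0.39 for RNY3, -0.29 ± 0.36 for RNY4 and -0.44 ± 0.39 for RNY5, and none passed the test.

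**Figure D4:**
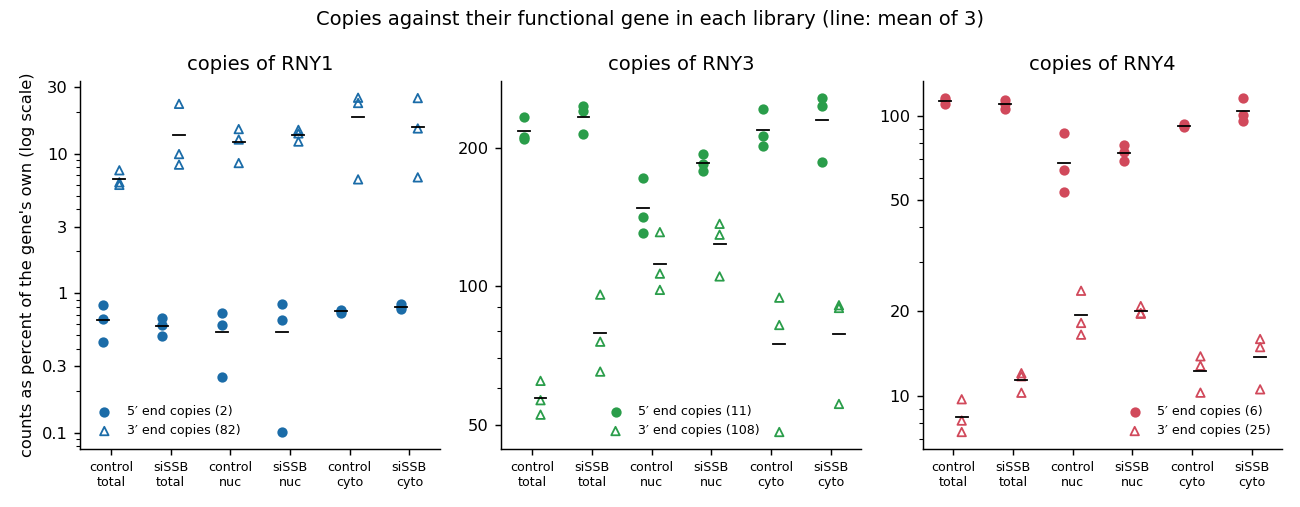
Summed counts of 5′-end copies (circles) and 3′-end copies (triangles) as percent of their functional gene (y axis, log scale, a different range in each panel), 1 point per library with a line at the mean of 3, by group and family. In total RNA the 3 siSSB triangles lie above the 3 control triangles in RNY1, RNY3 and RNY4.

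Of single copies, 0 of 194 tested in total RNA passed an adjusted p of 0.05 by edgeR, where 1.34% of all rows tested did, and 0 passed by DESeq2. At an unadjusted p under 0.05 edgeR had 50 copies, 35 higher and 15 lower in siSSB, and DESeq2 25 higher and 12 lower. The 50 are 25.8% of the copies tested, where 16.6% of all rows had an unadjusted p under 0.05 by edgeR. Of the 35 higher, 34 were 3′-end copies of RNY1. The 53 tested copies of that kind had a median log2 difference of 0.86 and 52 of them lay above 0, while the median of all rows was -0.01. Without siSSB total replicate 2 their median was 0.46 and 8 had an unadjusted p under 0.05. Over all copies 13 of 199 (6.53%) then had one, where 10.8% of all rows did. The other groups had medians below 0 with TMM scaling, which turned above 0 by the snoRNA total: -0.21 for 3′-end copies of RNY3, -0.03 for those of RNY4, and -0.48, -0.71 and -0.48 for 5′-end copies of RNY1, RNY3 and RNY4.

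**Figure D5:**
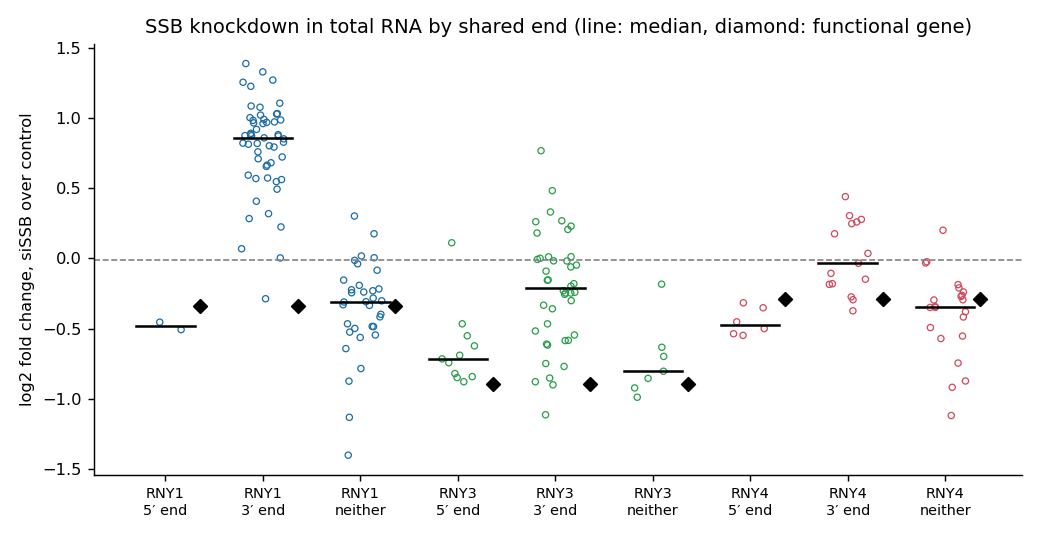
Log2 difference, siSSB minus control in total RNA, of each copy tested by family and kept end, with a line at the median, a diamond for the functional gene and a dashed line at the median of all rows. The 53 3′-end copies of RNY1 have a median of 0.86, and all points are open because no copy passed an adjusted p of 0.05.

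These calls depend on the scaling. Scaled by library size alone, by the small RNA class total or by the snoRNA total, edgeR called 18, 17 and 21 copies higher in siSSB and 0 lower, and these were 3′-end copies of RNY1 in each case. Of all rows, 4.50%, 4.40% and 4.65% were called higher under these scalings, and of the copies 9.28%, 8.76% and 10.8%. Scaled by the miRNA total it called 0 copies higher and 21 lower, which is 10.8% of the copies beside 10.1% of all rows. The median of all rows moved from -0.01 to 0.55, 0.55, 0.72 and -0.48 under these scalings, and that of the 3′-end copies of RNY1 was 1.55, 1.54, 1.77 and 0.35. The latter thus stayed above the median of all rows under each of the 4.

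SiSSB total replicate 2 also stood out in the counts of single 3′-end copies. URS00006F1B3E had 12, 24 and 24 counts in control total and 31, 91 and 26 in siSSB total. URS00007255C0 had 18, 20 and 17 against 23, 60 and 17, and RNY1P12 had 12, 10 and 9 against 14, 44 and 13. In each case the second siSSB library was highest. After TMM scaling URS00006F1B3E had 0.209, 0.382 and 0.349 CPM in control and 0.505, 1.10 and 0.406 in siSSB total, which did not overlap, while the groups of the other 2 copies overlapped. Among the abundant RNY4 copies, URS000065A213, opposite to TRPM6 (a magnesium channel) in an intron, had 992, 1108 and 1111 counts in control total and 1380, 1268 and 1502 in siSSB total, or 1.91%, 2.62% and 2.13% of RNY4 against 3.29%, 3.55% and 2.91%. URS0000640661, in an intron of TBC1D31, had 1952, 2182 and 2215 against 2711, 2134 and 2833 counts, or 3.76%, 5.17% and 4.24% of RNY4 against 6.47%, 5.98% and 5.49%. For both of these 3′-end copies the siSSB shares of RNY4 lay above all control shares. URS0000699390 showed no such shift, with 54.5%, 53.9% and 57.3% of RNY4 in control and 52.2%, 56.0% and 54.6% in siSSB total.

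In the nuclear fraction 24 copies could be tested, and all 24 had a log2 difference below 0 (siSSB minus control), with a median of -0.76 against 0.08 for all rows. By edgeR 0 passed an adjusted p of 0.05, where 0.378% of all rows did. DESeq2 called 1 lower, where it called 0.509% of all rows lower. At an unadjusted p under 0.05 edgeR had 15 lower and 0 higher, or 62.5% of the copies tested, where 13.95% of all rows had such a p. The 15 copies of RNY3 had a median of -0.87 and the 8 of RNY4 -0.61, beside log2 differences of -1.08 ± 0.30 for RNY3 and -0.67 ± 0.33 for RNY4 that did not pass the test either. With library size alone 1 of the 24 copies lay above 0, and the median was -0.43 against 0.43 for all rows. The excess of low p-values depended on the scaling. By library size alone, class total, snoRNA total and miRNA total, 12.5%, 16.7%, 16.7% and 12.5% of the copies had an unadjusted p under 0.05. The shares of all rows were then 21.5%, 20.4%, 17.8% and 14.9%, above those of the copies each time. The 3′-end copies stood at 8.58% to 15.0% of RNY1 in control and 12.2% to 14.8% in siSSB nuc, and at 98.3% to 131% against 105% to 137% of RNY3, so the groups overlapped. The 5′-end copies of RNY3 stood at 172%, 131% and 142% of RNY3 in control nuc and 194%, 178% and 184% in siSSB nuc, without overlap. Nuclear copy totals were small, 1933 to 6628 counts per library.

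In the cytoplasmic fraction 284 copies were tested and 0 passed an adjusted p of 0.05 by edgeR or DESeq2, where 0.291% of all rows passed by edgeR. At an unadjusted p under 0.05 edgeR had 2 higher and 3 lower, 1.76% of the copies beside 6.66% of all rows, and DESeq2 had 1 higher. The median log2 difference was -0.04 over the copies and 0.01 over all rows (0.15 and 0.21 by library size alone), and it was -0.26 for the 71 3′-end copies of RNY1, 0.09 for the 80 of RNY3 and 0.20 for the 16 of RNY4. The copy median was 0.10 without siSSB cyto replicate 2 and -0.15 without control cyto replicate 3, and that of the 3′-end copies of RNY1 was 0.10 and -0.62, so these signs rest on the 2 libraries with the lowest cyto miRNA shares. All 6 5′-end copies of RNY4 lay between 0.14 and 0.25, and none had an unadjusted p under 0.05. URS0000699390 had 34366, 25505 and 67333 counts in control cyto and 45192, 52277 and 42307 in siSSB cyto, and these overlapped.

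Whether the response differed between the fractions was tested by an interaction term over the 12 nuc and cyto libraries. Of 357 copies, 0 passed an adjusted p of 0.05 by edgeR or DESeq2, where 0.0133% of all rows passed by edgeR. At an unadjusted p under 0.05 edgeR had 46 copies with a lower response in the nucleus and 0 with a higher one, 12.9% of the copies beside 4.90% of all rows, and DESeq2 had 43 with a lower one. By family the 46 were 26 copies of RNY3, 10 of RNY4, 9 of RNY1 and 1 of RNY5, and the median interaction was -1.22 for RNY3 copies, -1.05 for RNY4 copies and -0.06 for RNY1 copies. The excess over all rows depended on the scaling. By library size alone, class total, snoRNA total and miRNA total, 20, 24, 36 and 12 of the 357 copies had such a p. Of all 37493 rows, 1932, 1846, 1294 and 2053 had one. By the miRNA total 1 of the 12 copies had a higher response in the nucleus.

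Other polymerase III RNAs were measured in the same fits from a list of 15, which held the 4 functional Y RNA genes, 4 vault RNAs (components of the vault particle), 7SK, 7SL, the RNAs of RNase MRP and RNase P, U6atac and BC200. In total RNA 0 of 12 tested were higher and 3 lower in siSSB cells: VTRNA1-1 by a log2 difference of -2.25 ± 0.34 (adjusted p = 0.0128, edgeR), VTRNA1-2 by -2.58 ± 0.38 (adjusted p = 0.0123) and VTRNA1-3 by -1.67 ± 0.37 (adjusted p = 0.0491). In the nuclear and in the cytoplasmic fraction 2 of 12 were lower, VTRNA1-1 and VTRNA1-2. Between nucleus and cytoplasm, 4 of 14 were higher in the nucleus in control cells. The RNase MRP RNA RMRP stood at 2.06 ± 0.34 (adjusted p = 1.41e-05, edgeR) and the RNase P RNA RPPH1 at 2.09 ± 0.36. The other 2 were 7SL genes, RN7SL1 at 3.05 ± 0.43 and RN7SL2 at 2.94 ± 0.44. The 8 lower RNAs were the 4 functional Y RNA genes, VTRNA1-1, VTRNA1-2, VTRNA2-1 and 7SK. For 7SK the log2 difference was -1.22 ± 0.29 (adjusted p = 0.0014, edgeR). The study places 7SK in the regulation of transcription, and 7SL in the targeting of secretory proteins at the endoplasmic reticulum. On this scale 7SK and 7SL thus lay on the side opposite to these roles, and the reason was not tested. In siSSB cells 4 of 13 were higher and 7 lower. The copies were thus on the side of the Y RNA genes in this comparison, apart from the RNY3 copies above 0.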

How the data were processed

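Small RNA libraries were made per the labels with the mirVana PARIS and NEBNext small RNA kits. The authors deposited 1 table of raw counts per noncoding RNA row for the 18 libraries. The submitters' processing notes name Bowtie2, bedtools and hg38. For these libraries, versions, trimming, the use of strand and the treatment of reads with several positions are not given in the sources used here. Rows reach 25 nt beyond the annotated copy on each side and overlap, so a read can count in several rows. Reads carry no stated molecular identifiers, so bounds from 3 counts cover counting error only.

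Each copy was aligned to the 4 functional genes on the hg38 genome with Biopython 1.88 (local alignment, match 2, mismatch -3, gap open -5, gap extension -2) and placed by GENCODE 44. Direct repeats with more than 7 A or T were not counted. Differences were tested on the deposited counts of all rows with edgeR 4.0.16 (limma 3.58.1, R 4.3.3), by glmQLFit and glmQLFTest with TMM factors and filterByExpr, on the 6 libraries of each comparison or the 12 of the interaction. Benjamini-Hochberg adjustment covered all rows tested, with a threshold of 0.05, and standard errors were derived from the F statistic. DESeq2 1.42.0, other scalings, no filter, a replicate block and leaving out each library were alternatives. Scripts were tested on simulated data. P-values measure the spread between these libraries, which the study described as biological replicates. They do not cover differences between cell lines, since all libraries came from 1 line.

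Groups and replicate numbers came from the sample titles. Same-numbered nuclear and cytoplasmic control libraries deviated together (r = 0.112, 0.142 and 0.167), so the numbers were taken to pair these libraries. The evidence was weak, since differently numbered pairs ran from -0.184 to 0.098. The main fits had no block for the replicate number. With the block, 239 copies were lower and 1 higher in the nucleus in control cells, where 13.0% of all rows were lower and 9.18% higher. In the other comparisons at least 1 pair was at or below 0.1. Copies named were the 10 with the highest counts, the highest of each family, RNY4P13, and per comparison up to 3 higher and 3 lower copies with the largest log2 difference that passed the test, averaged 20 or more counts and had group ranges apart from each other. URS0000721DFD, the highest RNY1 copy, overlaps a transcript end of GVQW3 and its sequence is not shown. It had 5898 counts. Some copies that the rule names and some sequences are not reported here. The members, the lists and the rules were chosen with earlier results of these data known.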

Additional observations from a re-analysis of the deposited data

How the results depend on the processing

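In total RNA, 0 copies passed for the knockdown, against 18, 17, 21 and 21 when scaled by library size alone, the small RNA class total, the snoRNA total and the miRNA total, and 6 with no filter on low counts. Of these 6, 4 were higher and 2 lower, or 0.702% and 0.351% of the copies, beside 0.166% and 0.380% of all rows. In the nuclear fraction 0 passed, against 1 with DESeq2 and 1 with no filter, where 0.509% and 0.0516% of all rows were called lower. Leaving out 1 library gave 0 to 1 copies in total RNA, 0 to 3 in the nuclear fraction, 205 to 265 of the control and 243 to 291 of the siSSB copies differing between nucleus and cytoplasm, and 0 in the cytoplasmic and interaction comparisons. Of all rows, 10.6% to 13.7% were then lower in the nucleus in control cells, and 2741 to 3794 rows in siSSB cells.

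The summed copies differed between siSSB and control total by a log2 value of -0.35 with TMM scaling, and by 0.19, 0.19, 0.33 and -0.81 under the other 4 scalings, so the sign depends on the scaling. In cytoplasmic RNA the value was 0.10, against 0.30, 0.33 and 0.49 by library size, class total and snoRNA total, and in nuclear RNA -0.69. Between nucleus and cytoplasm it was -3.21 in control cells, against -7.38, -6.19, -9.17 and -4.08, and -4.17 in siSSB cells, against -8.03, -6.90 and -10.07 for the first 3 scalings. Leaving out 1 library gave -0.52 to -0.06 in total RNA, -0.99 to -0.40 in nuclear and -0.0093 to 0.25 in cytoplasmic RNA for the knockdown, and -3.46 to -2.94 and -4.34 to -3.80 between nucleus and cytoplasm.

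The share of Y RNA counts at the copies was lower in the nucleus by a difference in percentage points of -3.11 in control and -3.36 in siSSB cells, and without the copy with the highest count -0.23 and -0.41. Leaving out 1 library gave differences of -4.30 to -2.04 and -4.38 to -1.99, and for the knockdown -0.02 to 1.39 in total, 0.95 to 3.39 in nuclear and 1.08 to 2.97 in cytoplasmic RNA. With the replicate number as a block, 240 and 272 copies differed between nucleus and cytoplasm in control and siSSB cells, and 0 in the other 4 comparisons. Apart from URS0000717DFB, named in the report, the block changed no count of calls by over 1.5 times. The ratio of 3′-end copies to the gene without siSSB total replicate 2 was an alternative chosen after seeing the data. Nuclear libraries held 1933 to 6628 copy counts.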
